A study of Homo sapiens with 12 samples.

Results

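The NF-κB feedback inhibitors described here are 10 genes, chosen by symbol among the 28901 named genes measured, whose products restrain the NF-κB pathway and are themselves in large part its target genes: NFKBIA, NFKBIB, NFKBIE, NFKBIZ and NFKB2 of the IκB family, TNFAIP3 and its partners TNIP1, TNIP2 and TNIP3, and BIRC3. Their mRNAs were measured by RNA-seq in adipocytes made from ASC52telo, an hTERT-immortalized line of human adipose stromal cells, at day 14 of culture. The cells expressed a scramble shRNA (scramble control) or an shRNA against the long intergenic noncoding RNA linc-ADAIN (linc-ADAIN KD), each from 1 lentiviral hairpin carrying the ZsGreen marker by which the cells were sorted, and were left without LPS or given LPS, a bacterial cell wall component that signals through TLR4, at 100 ng/mL for 4 h. Each of the 4 groups (scramble control, scramble control with LPS, linc-ADAIN KD, linc-ADAIN KD with LPS) had 3 libraries. All groups, controls included, had been differentiated with insulin, dexamethasone, isobutylmethylxanthine, rosiglitazone, pantothenate and biotin, and were then kept in insulin at 1.7 µM, dexamethasone at 1 µM, pantothenate and biotin, so that a glucocorticoid was present in every group. The 12 libraries came from 1 experiment, and the p-values measure only the spread between these libraries, which may be technical.

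In resting cells, IκB proteins hold NF-κB dimers in the cytoplasm. LPS or cytokines activate kinases and chains of ubiquitin that mark IκBα for destruction, the dimers enter the nucleus, and among the genes they induce are their own inhibitors, which end the response. Adipocytes and their precursors carry TLR4 and answer LPS with NF-κB-driven cytokines, and adipose tissue inflammation in obesity runs in part through this pathway. Not every member is only an inhibitor. NFKBIZ encodes IκBζ, a nuclear IκB protein that is also needed for the induction of a subset of late target genes, NFKB2 encodes p100, which retains RelB until it is processed to the active subunit p52, and BIRC3 encodes cIAP2, a ubiquitin ligase that promotes signalling at the TNF receptor yet limits the noncanonical pathway.

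The promoters of the members are shown because NF-κB binds a short DNA element, and the members differed in whether its letters stand in front of their start sites. RefSeq windows on GRCh38.p14, from 250 bases before to 50 bases after a start site, were at hand for 9 of the 10 members (16 windows, since some genes have several start sites), and NFKBIE had none there. They were searched on both strands for the κB decamer (GGGA and TTCC, parted by any pair of bases) and for the broader κB consensus, which takes in part of the decamer's matches. The decamer was found in 6 of the 9 members, against 1.97% of 27305 genes and 1.61% of 35116 windows in the whole table, and the consensus in 8 of the 9, against 7.09% of genes and 5.91% of windows. TNIP2 held neither. The stretches below run 5′ to 3′ on the strand of the gene, with the letters of each decamer or consensus match in capitals. A match is a description of the sequence, and binding was not measured. Stretches that meet an annotated untranslated region were kept to 30 bases or fewer. In NFKBIA (chr14:35404776-35404875, minus strand) the decamer begins 81 bases before the start site, and in NFKBIZ (chr3:101827740-101827821, plus strand) it begins 223 bases before it.
NFKBIA: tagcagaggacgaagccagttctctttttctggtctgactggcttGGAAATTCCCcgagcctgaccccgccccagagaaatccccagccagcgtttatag
NFKBIZ: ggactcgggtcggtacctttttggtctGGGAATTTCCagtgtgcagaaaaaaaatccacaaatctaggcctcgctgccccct

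TNFAIP3 (chr6:137867188-137867217, plus strand) holds a decamer and, next to it, a match to the consensus alone. TNIP1 (chr5:151081057-151081086, minus strand) and NFKB2 (chr10:102395674-102395703, plus strand) hold the decamer 42 and 21 bases before 1 of their start sites. NFKBIB (chr19:38899932-38899961, plus strand) is shown as well because it holds 2 overlapping decamers, 1 on each strand, although its mRNA did not pass the test in any comparison that follows.
TNFAIP3: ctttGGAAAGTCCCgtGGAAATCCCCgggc
TNIP1: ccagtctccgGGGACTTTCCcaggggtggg
NFKB2: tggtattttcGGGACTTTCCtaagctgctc
NFKBIB: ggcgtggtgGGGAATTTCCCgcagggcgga

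TNIP3 (chr4:121227491-121227590, minus strand) and BIRC3 (chr11:102317240-102317339, plus strand), the members that differed most between the shRNAs, hold the consensus but not the decamer. In TNIP3 the consensus is matched in 2 of 3 windows, 62 bases before the start site nearest the stretch shown and 61 bases before another start site. In BIRC3 matches begin 199 and 135 bases before the start site, and the first is shown.
TNIP3: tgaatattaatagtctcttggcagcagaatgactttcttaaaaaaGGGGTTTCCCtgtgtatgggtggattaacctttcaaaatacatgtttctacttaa
BIRC3: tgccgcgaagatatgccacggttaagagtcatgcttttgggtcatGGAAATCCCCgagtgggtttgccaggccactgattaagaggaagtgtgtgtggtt

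The authors deposited kallisto's estimated counts per gene, which are given below as CPM (counts per 1e6 of a library's total after TMM scaling). Totals on named genes ran from 28.4 to 53.8 M counts per library (M, units of 1e6), and log2 CPM correlated between libraries of a group at 0.960 to 0.980. The transcript targeted by the shRNA was not analysed here, so the knockdown was not checked by its target. Adipocyte markers such as ADIPOQ and FABP4 were present in every library, while LPL did not exceed 82 counts, CIDEA 5 counts and LEP 21 counts. The summed CPM of the 12 adipocyte markers was 3490 to 4790 in scramble control, 4000 to 4740 with LPS, 767 to 2050 in linc-ADAIN KD and 625 to 1330 in linc-ADAIN KD with LPS. In bulk RNA, fewer cells of a type and less RNA per cell cannot be told apart. Summed stromal markers were between 3420 and 4430 in all groups, but single markers moved in opposite directions. With the knockdown, 3 of the 8 stromal markers tested were called higher and 3 lower (edgeR's adjusted p under 0.05), both without and with LPS. Of all genes tested, 12.1% were called higher and 15.1% lower without LPS, and 12.7% and 14.2% with LPS. Summed macrophage and leukocyte markers were 57.5 to 72.0 over the scramble libraries and 80.5 to 117 over the KD libraries. The defining leukocyte genes were at or near 0, with AIF1 and CD3E at 0 in every library and at most 12 counts for PTPRC, so that CD68 and CD163, which are not confined to macrophages, made up most of this sum. Summed endothelial markers were 15.5 to 27.3 in the scramble libraries and 8.48 to 13.8 in the KD libraries. The part of these marker shifts in the knockdown results below was not tested.

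Per kilobase of the reference transcript, the scale on which genes can be set side by side, NFKBIA was by far the most abundant member in scramble control, at 77.2 ± 8.96 CPM per kb (SD, n = 3), which was 44.8% of the sum over all members. NFKBIA encodes IκBα, the inhibitor that is destroyed and remade within a single response. TNIP1, which encodes the ubiquitin-binding A20 partner ABIN1, followed at 22.4 ± 1.47 CPM per kb and TNFAIP3, which encodes the ubiquitin-editing enzyme A20, at 20.5 ± 1.8, and these neighbours overlapped within their SD. NFKBIB, TNIP2, NFKB2 and NFKBIZ came next, from 16.5 down to 7.48 CPM per kb. NFKBIE, TNIP3 and BIRC3 were scarce, at 1.21, 0.715 and 0.393 CPM per kb. The first 3 places were held by NFKBIA, TNIP1 and TNFAIP3 in all 4 groups, with TNFAIP3 and TNIP1 exchanging places, within their SD, in scramble control with LPS.

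The composition of the set shifted with LPS and with the knockdown. The summed level of the 10 mRNAs was 172 CPM per kb in scramble control, 426 with LPS, 196 in linc-ADAIN KD and 555 in linc-ADAIN KD with LPS. NFKBIA was at nearly the same level per kb with LPS under either shRNA, 172 ± 16.3 and 173 ± 15.4, and its share of the sum was 40.3% in scramble control with LPS and 31.1% in linc-ADAIN KD with LPS. TNIP1 made up 17.0% and 20.8%, NFKBIZ 6.1% and 10.3%, TNIP3 0.858% and 2.99%, and BIRC3 0.34% and 2.13% of these sums.

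**Figure D1:**
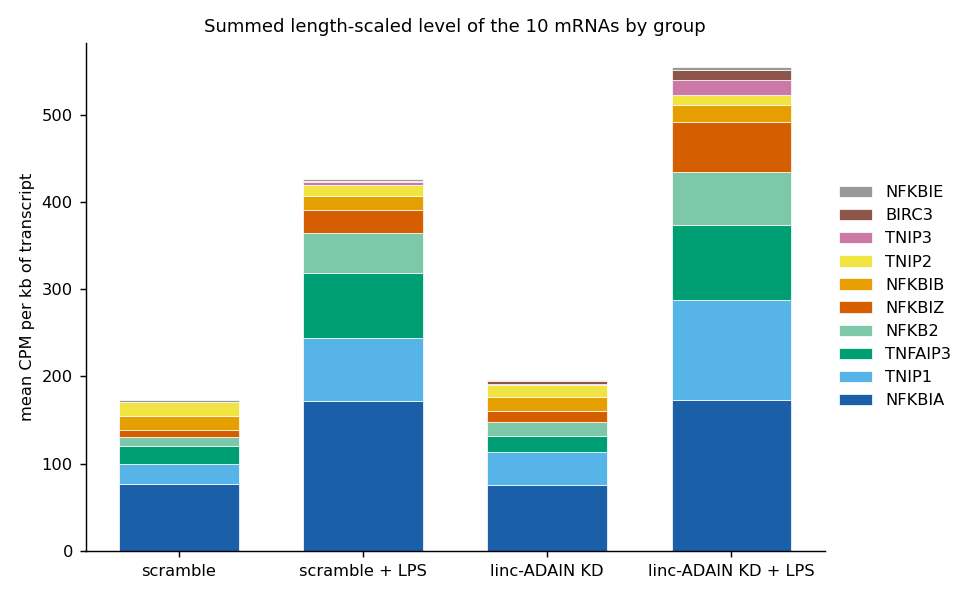
Stacked bars of the mean level of each of the 10 mRNAs, in CPM per kb of transcript (vertical axis, from 0), for the 4 groups of 3 libraries. The NFKBIA block is nearly equal in the 2 groups with LPS, at 172 and 173, while the TNIP1 and NFKBIZ blocks are taller in linc-ADAIN KD with LPS.

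LPS raised 8 of the 10 members in scramble control, where 5.90% of 15920 genes tested were called higher (adjusted p under 0.05). The 8 were NFKBIA, NFKBIE, NFKBIZ, NFKB2, TNFAIP3, TNIP1, TNIP3 and BIRC3. All but NFKBIE rose by at least 2-fold, against 1.40% of all genes. No member was called lower by edgeR, against 8.38% of all genes, although TNIP2 had an unadjusted p under 0.05 and was called lower by DESeq2. The median log2 fold change of the members was 1.76, and that of all genes tested was 0.020.

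Within the IκB family, NFKBIA was at 104, 127 and 129 CPM in scramble control and at 243, 294 and 266 CPM with LPS. The lowest library with LPS was well above the highest without, and the rise was 2.24-fold (log2 1.17, SE 0.10, adjusted p = 1.6e-05 by edgeR's quasi-likelihood test). NFKB2 rose the most of this family, from 34.2, 34.7 and 28.8 CPM to 118, 161 and 133 CPM, or 4.25-fold (log2 2.09, 95% interval 1.83 to 2.35, adjusted p = 6.7e-07). NFKBIZ went from 29.7, 27.2 and 31.1 CPM to 99.9, 98.4 and 107 CPM, a 3.50-fold rise with little spread in either group (log2 1.81, SE 0.084). NFKBIE, which encodes IκBε, a slower-acting inhibitor, was at 2.81, 3.50 and 2.17 CPM without LPS and 5.14, 6.67 and 4.22 CPM with it. Its groups were separate but close, and the 1.90-fold rise had an adjusted p of 0.028 by edgeR. That call was lost without scramble control replicate 1 (log2 0.92, adjusted p = 0.08), scramble control replicate 3 (0.77, adjusted p = 0.089) or scramble control LPS replicate 2 (0.74, adjusted p = 0.1). NFKBIB, which encodes IκBβ, was at 19.3, 20.1 and 19.6 CPM without LPS and 20.4, 22.0 and 16.5 CPM with it. These libraries overlapped, and the log2 difference of 0.010 had a 95% interval of -0.25 to 0.27.

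Among the A20 group, TNFAIP3 was at 87.5, 95.6 and 104 CPM in scramble control and 309, 376 and 356 CPM with LPS. Every library with LPS was far above those without, a 3.65-fold rise (log2 1.87, SE 0.096, adjusted p = 3.3e-07 by edgeR). TNIP1 rose 3.25-fold, from 68.0, 59.6 and 64.9 CPM to 185, 233 and 203 CPM. TNIP3 encodes ABIN3, the least abundant of the A20 partners in these groups, and was at 2.05, 1.52 and 1.57 CPM without LPS and 7.82, 9.31 and 9.12 CPM with it. Its rise of 5.14-fold (log2 2.36, SE 0.20) was the greatest of the 10. TNIP2, which encodes the third A20 partner ABIN2, went the other way without passing the test, from 29.3, 28.6 and 30.9 CPM to 20.7, 25.4 and 24.7 CPM (log2 -0.31, 95% interval -0.54 to -0.090, adjusted p = 0.064 by edgeR). BIRC3 was at 2.49, 4.05 and 1.57 CPM without LPS, on 73 to 213 counts, and at 8.31, 11.4 and 10.2 CPM with it. The 3.70-fold rise (log2 1.89, SE 0.29, adjusted p = 0.001) was the least precise of the called members, and the scramble libraries without LPS themselves spread from 1.57 to 4.05 CPM.

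**Figure D2:**
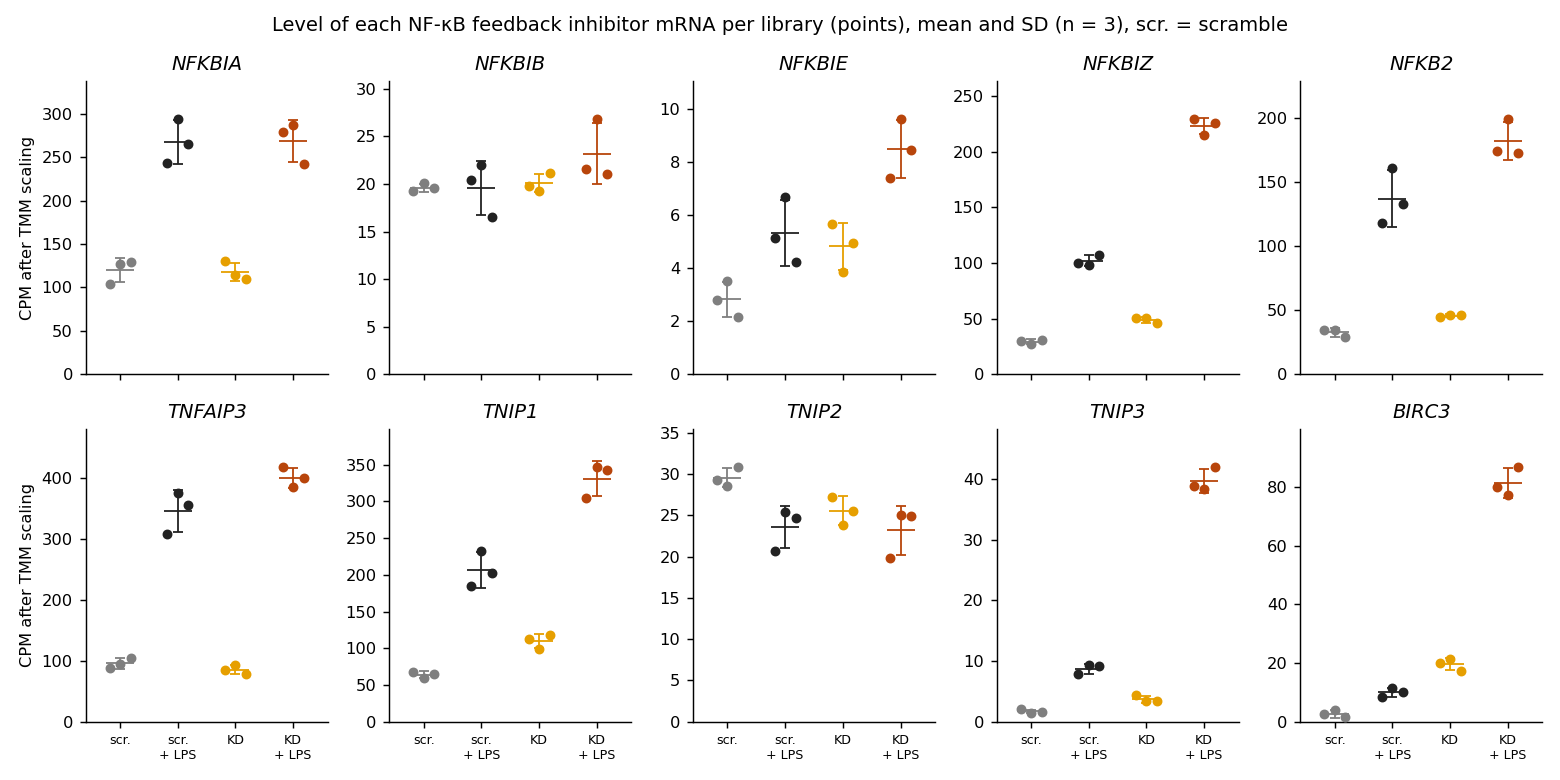
Level of each member in CPM after TMM scaling (vertical axes from 0, one scale per gene) in each library (points), with the mean and SD of the 3 libraries of each of the 4 groups on the horizontal axis. BIRC3 libraries of linc-ADAIN KD without LPS, at 17.3 to 21.4, lie above those of scramble control with LPS, at 8.31 to 11.4, while the NFKBIA points differ by LPS and not visibly by shRNA.

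In linc-ADAIN KD adipocytes, LPS again raised 8 of the 10 members, with NFKBIB and TNIP2 as the exceptions, where 5.32% of 16169 genes tested were called higher. At least 2-fold rises were seen in 7 members and in 1.30% of all genes. None was called lower by edgeR or DESeq2, and none had an unadjusted p under 0.05 in that direction, against 6.03% of all genes called lower. The median log2 fold change was 1.79 for the members and 0.0099 for all genes.

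TNIP3 again led, from 4.41, 3.40 and 3.36 CPM in linc-ADAIN KD to 38.9, 38.3 and 42.0 CPM with LPS. That was a 10.7-fold rise (log2 3.42, SE 0.14, adjusted p = 7.2e-10 by edgeR), and no library with LPS was under 38.3 CPM. TNFAIP3 rose 4.69-fold, from 85.3, 92.5 and 78.9 CPM to 419, 385 and 400 CPM. NFKBIZ rose 4.55-fold, from 50.4, 50.6 and 46.1 CPM to 229, 215 and 226 CPM, and BIRC3 rose 4.14-fold, from 20.1, 21.4 and 17.3 CPM to 80.0, 77.1 and 86.8 CPM. These 4 genes had tight replicates in both groups, and no library of one group came near the other. NFKB2 rose 3.99-fold (44.5, 46.1 and 46.5 CPM against 174, 199 and 173 CPM), TNIP1 3.01-fold (113, 99.0 and 118 CPM against 304, 347 and 342 CPM) and NFKBIA 2.29-fold (130, 114 and 110 CPM against 279, 287 and 242 CPM). NFKBIE rose 1.77-fold, from 5.65, 3.86 and 4.96 CPM to 7.41, 9.62 and 8.47 CPM. Its call (adjusted p = 0.018 by edgeR) was lost without linc-ADAIN KD replicate 2 (log2 0.67, adjusted p = 0.072), linc-ADAIN KD LPS replicate 2 (0.73, adjusted p = 0.086) or linc-ADAIN KD LPS replicate 3 (0.82, adjusted p = 0.054). NFKBIB (log2 0.21, 95% interval -0.063 to 0.48) and TNIP2 (log2 -0.14, 95% interval -0.40 to 0.13) did not pass the test, and their libraries overlapped.

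**Figure D3:**
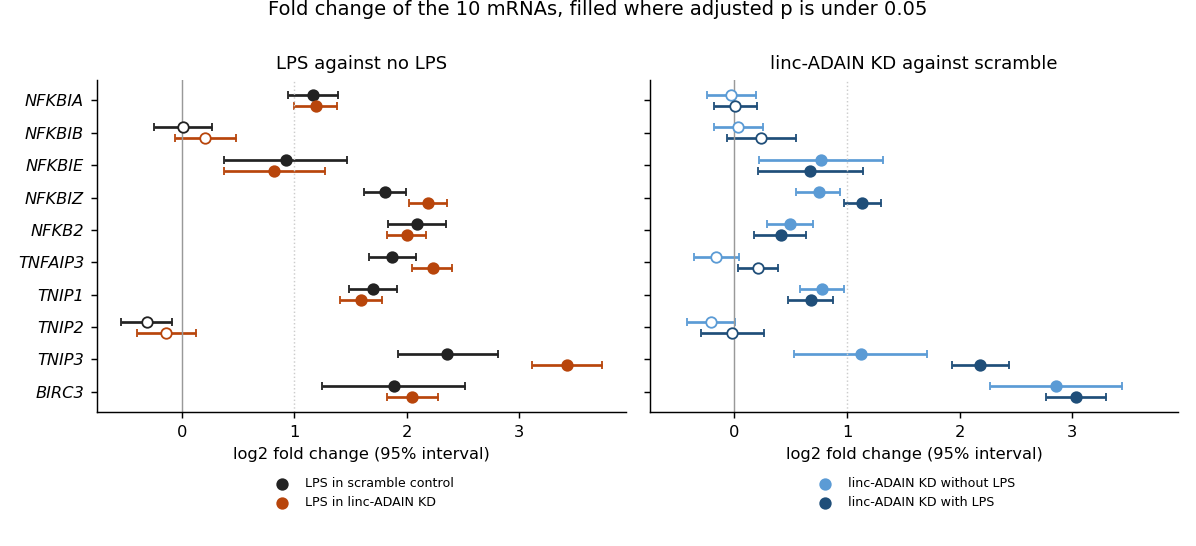
Log2 fold change (horizontal axis) with its 95% interval for each member, for LPS against no LPS under each shRNA (left) and for linc-ADAIN KD against scramble control without and with LPS (right), with filled points where edgeR's adjusted p was under 0.05. On the left the 2 intervals lie apart for TNIP3, at 1.92 to 2.81 and 3.11 to 3.73, and narrowly for NFKBIZ, at 1.62 to 1.99 and 2.02 to 2.36, and BIRC3 is farthest to the right in the right panel.

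Without LPS, linc-ADAIN KD raised 6 of the 10 members over scramble control, and BIRC3 the most. In this comparison 12.1% of 16217 genes tested were called higher and 15.1% lower. The 6 were BIRC3, TNIP3, TNIP1, NFKBIE, NFKBIZ and NFKB2. No member was called lower by edgeR or DESeq2 or had an unadjusted p under 0.05 in that direction. At least 2-fold rises were seen in 2 members, BIRC3 and TNIP3, and in 4.28% of all genes. The median log2 fold change was 0.62 for the members and 0.024 for all genes. In the same libraries 8 of the 11 adipocyte markers tested were called lower.

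BIRC3 went from 2.49, 4.05 and 1.57 CPM in scramble control to 20.1, 21.4 and 17.3 CPM in linc-ADAIN KD. The lowest KD library was above the highest scramble library by a wide margin, and the difference was 7.25-fold (log2 2.86, 95% interval 2.27 to 3.44, adjusted p = 9.7e-06 by edgeR), which placed BIRC3 at rank 558 of 16217 from the most positive log2 fold change. TNIP3 was next, at 2.05, 1.52 and 1.57 CPM against 4.41, 3.40 and 3.36 CPM. Its groups were separate at low levels, 73 to 183 counts per library, with a 2.17-fold rise (log2 1.12, SE 0.27, adjusted p = 0.0089). TNIP1 rose 1.72-fold (68.0, 59.6 and 64.9 CPM against 113, 99.0 and 118 CPM, adjusted p = 4.8e-05 by edgeR) and NFKBIZ 1.68-fold (29.7, 27.2 and 31.1 CPM against 50.4, 50.6 and 46.1 CPM, adjusted p = 7.9e-05). NFKB2 rose 1.41-fold, from 34.2, 34.7 and 28.8 CPM to 44.5, 46.1 and 46.5 CPM. NFKBIE, at 2.17 to 3.50 CPM in scramble control and 3.86 to 5.65 CPM in linc-ADAIN KD, had an adjusted p of 0.04 by edgeR for a 1.71-fold rise. That call was lost without scramble control replicate 1 (log2 0.77, adjusted p = 0.094), scramble control replicate 3 (0.60, adjusted p = 0.13), linc-ADAIN KD replicate 1 (0.64, adjusted p = 0.12) or linc-ADAIN KD replicate 3 (0.75, adjusted p = 0.088).

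The principal feedback inhibitors IκBα and A20 did not pass the test without LPS. NFKBIA was at 104 to 129 CPM in scramble control and 110 to 130 CPM in linc-ADAIN KD. Its log2 difference was -0.026, with a 95% interval of -0.24 to 0.19, and the sign turned when the libraries were scaled by their totals alone (0.078). TNFAIP3 was at 87.5 to 104 CPM and 78.9 to 92.5 CPM (log2 -0.16, 95% interval -0.36 to 0.040), with overlapping libraries. The NFKBIB libraries overlapped too, at 19.3 to 20.1 and 19.3 to 21.2 CPM. The TNIP2 libraries of linc-ADAIN KD, at 23.8 to 27.3 CPM, all lay below those of scramble control, at 28.6 to 30.9 CPM, but its log2 difference of -0.21 did not pass the test (adjusted p = 0.14 by edgeR).

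The levels with the knockdown alone can be set beside those with LPS alone, as values with no test. How many of all genes separate between these groups was not counted, so the separations describe the single genes and are no result about the set. BIRC3 averaged 19.6 ± 2.09 CPM in linc-ADAIN KD without LPS and 9.96 ± 1.55 CPM in scramble control with LPS (SD, n = 3), with no overlap. NFKBIE averaged 4.82 ± 0.901 and 5.34 ± 1.24 CPM in the same groups, which overlapped. NFKBIZ, NFKB2, TNIP1, TNIP3, TNFAIP3 and NFKBIA were lower in every linc-ADAIN KD library without LPS than in every scramble library with LPS, with for example 3.72 ± 0.595 against 8.75 ± 0.810 CPM for TNIP3 and 49.0 ± 2.57 against 102 ± 4.73 CPM for NFKBIZ, and NFKBIB and TNIP2 overlapped.

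With LPS, linc-ADAIN KD again raised BIRC3, TNIP3, NFKBIZ, TNIP1, NFKBIE and NFKB2 over scramble control, 6 of the 10 members, where 12.7% of 15981 genes tested were called higher and 14.2% lower. At least 2-fold rises were seen in 3 members, BIRC3, TNIP3 and NFKBIZ, and in 4.58% of all genes. No member was called lower by edgeR or DESeq2, and none had an unadjusted p under 0.05 in that direction. The median log2 fold change was 0.54 for the members and 0.025 for all genes. The comparison shares no library with the one without LPS, but both rest on the same hairpins and the same experiment. In it 9 of the 11 adipocyte markers tested were called lower.

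BIRC3 was at 8.31, 11.4 and 10.2 CPM in scramble control with LPS and at 80.0, 77.1 and 86.8 CPM in linc-ADAIN KD with LPS. This 8.18-fold difference (log2 3.03, SE 0.12, adjusted p = 1.7e-09 by edgeR) was the largest of any member for the knockdown. TNIP3 stood at 7.82, 9.31 and 9.12 CPM against 38.9, 38.3 and 42.0 CPM. Its groups lay far apart, a 4.54-fold rise (log2 2.18, 95% interval 1.93 to 2.44, adjusted p = 1.5e-08 by edgeR). NFKBIZ was 2.19-fold higher, at 99.9, 98.4 and 107 CPM against 229, 215 and 226 CPM (log2 1.13, SE 0.076). TNIP1 was 1.60-fold higher, at 185, 233 and 203 CPM against 304, 347 and 342 CPM. NFKB2 was 1.33-fold higher, at 118, 161 and 133 CPM against 174, 199 and 173 CPM (adjusted p = 0.012 by edgeR). Its groups were separate by a narrow gap, and the call was lost without scramble control LPS replicate 3 (log2 0.39, adjusted p = 0.054) or linc-ADAIN KD LPS replicate 2 (0.33, adjusted p = 0.074). NFKBIE was 1.60-fold higher, at 4.22 to 6.67 CPM against 7.41 to 9.62 CPM (adjusted p = 0.033). Its call was lost without scramble control LPS replicate 1 (log2 0.65, adjusted p = 0.068) or 3 (0.53, adjusted p = 0.14) and without linc-ADAIN KD LPS replicate 2 (0.57, adjusted p = 0.13) or 3 (0.67, adjusted p = 0.07).

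NFKBIA did not pass the test with LPS either, at 243 to 294 CPM in scramble control and 242 to 287 CPM in linc-ADAIN KD, and its log2 difference had a 95% interval of -0.18 to 0.20. TNFAIP3 was at 309 to 376 CPM against 385 to 419 CPM. These libraries did not overlap, yet the log2 difference of 0.21 (95% interval 0.032 to 0.39) had an adjusted p of 0.08 by edgeR. It was called higher by DESeq2 (adjusted p = 0.039), with scaling by library totals alone (log2 0.29, adjusted p = 0.018) and without scramble control LPS replicate 2 (log2 0.27, adjusted p = 0.035). NFKBIB (16.5 to 22.0 against 21.0 to 26.8 CPM) and TNIP2 (20.7 to 25.4 against 19.8 to 25.0 CPM) overlapped between the groups. NFKBIB shares exon sequence with SIRT2 on the other strand, TNFAIP3 with the noncoding WAKMAR2 on the other strand, BIRC3 with an unnamed noncoding gene on the other strand, and NFKBIZ with NXPE3 on the same strand. The library kit keeps strand, and whether kallisto was told of it is not given in the sources used here, so counts of the 3 members with a neighbour on the other strand are uncertain to that extent. Strand cannot separate NFKBIZ from NXPE3, and how reads on their shared exon sequence were divided rests on kallisto's estimate.

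Whether the response to LPS differed between the shRNAs was tested by the interaction over all 12 libraries, in which 0.943% of 17173 genes tested were called higher and 0.332% lower. TNIP3 was the 1 member called. Its LPS response was larger in linc-ADAIN KD by 1.07 on the log2 scale (SE 0.22, 95% interval 0.61 to 1.53, adjusted p = 0.02 by edgeR), that is 10.7-fold against 5.14-fold. The call was lost without scramble control replicate 1 (0.92, adjusted p = 0.065) or linc-ADAIN KD LPS replicate 3 (1.03, adjusted p = 0.065). NFKBIZ (0.39, 95% interval 0.17 to 0.62, adjusted p = 0.096) and TNFAIP3 (0.37, 95% interval 0.11 to 0.63, adjusted p = 0.2) had unadjusted p-values under 0.05 but did not pass the adjustment with edgeR, and NFKBIZ passed with DESeq2 (adjusted p = 0.023). No member was called lower by either tool or had an unadjusted p under 0.05 in that direction. For BIRC3 the difference of the log2 responses was 0.18, with a wide interval of -0.43 to 0.79. For NFKBIA the difference was 0.040, with an interval of -0.26 to 0.34. NFKBIB (0.21), TNIP2 (0.19), NFKB2 (-0.080), NFKBIE (-0.092) and TNIP1 (-0.10) were not called either. The median over the members was 0.19, and over all genes 0.0096.

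The other genes of the pathway were counted by role. Their counts are to be read against the shares of all genes called higher and lower, which were 5.90% and 8.38% for LPS in scramble control, 5.32% and 6.03% for LPS in linc-ADAIN KD, 12.1% and 15.1% for the knockdown without LPS, and 12.7% and 14.2% with LPS. Of the 4 remaining NF-κB subunits (NFKB1, RELA, RELB and REL), 3 rose with LPS in scramble control and 4 in linc-ADAIN KD, and REL, which encodes c-Rel, rose the most under either shRNA (log2 1.99 and 2.16). The knockdown raised 1 of them without LPS and 3 with LPS. The largest rise was that of RELB, the partner of p52 and p100, at log2 0.64 without LPS (SE 0.14, adjusted p = 0.0044 by edgeR) and 0.45 with it. None fell in these comparisons.

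Of the 14 genes of kinases upstream of or beside IκB and their regulatory and adaptor subunits (such as IKBKG and TAB1), 6 rose and 1 fell with LPS in scramble control, and 4 rose and 1 fell in linc-ADAIN KD. MAP3K8, a kinase bound and stabilized by the NFKB1 precursor, rose by log2 1.45 and 1.72, and MAP2K3, a kinase of p38, fell by 1.01 and 0.28. With the knockdown, 1 was called higher and 3 lower without LPS (all genes, 12.1% and 15.1%), and 3 higher and 1 lower with LPS (12.7% and 14.2%), which is near the share of all genes and no result about this list. The receptor-proximal list of 16 genes holds TLR4, LY96, CD14 and IRAK kinases as well as adaptors. Of these 16 genes, 2 rose and 5 fell with LPS in scramble control, and 2 rose and 1 fell in linc-ADAIN KD. TRAF1, an adaptor that binds BIRC3, rose in all 4 comparisons of groups, by log2 1.57 and 2.16 for LPS and by 1.32 and 1.91 for the knockdown without and with LPS. Its libraries held 187 to 297 counts in scramble control and 1565 to 2961 counts in linc-ADAIN KD with LPS. The LPS receptor gene TLR4 fell by 0.84 on the log2 scale with LPS in scramble control, and its response differed between the shRNAs by 1.09 (SE 0.24, adjusted p = 0.03 by edgeR). With the knockdown, 2 of the 16 genes of this list were called higher and 2 lower without LPS, which is near the 12.1% and 15.1% of all genes, and 4 higher and 1 lower with LPS, beside 12.7% and 14.2%.

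Of the 12 genes of the ubiquitin machinery, 2 rose and 1 fell with LPS under each shRNA. With the knockdown, 1 was called higher and 2 lower without LPS, and 2 higher and 2 lower with LPS, counts near those that 12.1% and 15.1%, and 12.7% and 14.2%, of all genes would give. BIRC2, the neighbouring paralog of BIRC3 that encodes cIAP1, rose with the knockdown by log2 0.52 without LPS and 0.74 with it, where BIRC3 differed by 2.86 and 3.03. The largest fall of this list with the knockdown was that of OTUD7B, at log2 -0.66 without LPS and -0.57 with it. CYLD, a deubiquitinase that restrains the same pathway, rose with LPS by log2 0.58 in scramble control and 0.82 in linc-ADAIN KD, and UBE2N fell (log2 -0.45 and -0.35). Of the 10 genes listed as other inhibitors, 4 rose with LPS under each shRNA, namely BCL3, IRAK3, ZC3H12A and CFLAR. CFLAR encodes an inhibitor of caspase-8, so the list is not confined to inhibitors of NF-κB. ZC3H12A, a ribonuclease that degrades cytokine mRNAs, rose by log2 2.93 and 2.71 with LPS, the first above the value of every member and the second above that of every member but TNIP3, and by 1.37 and 1.16 with the knockdown without and with LPS. It was the 1 gene of its list to rise with the knockdown in either comparison, and TOLLIP fell without LPS (log2 -0.33).

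The 21 NF-κB output genes, mostly cytokines, chemokines and adhesion molecules, rose in most cases and in no case fell in the 4 comparisons of groups. With LPS, 18 of 20 tested rose in scramble control and 19 of 21 in linc-ADAIN KD. With the knockdown, 18 of 21 rose without LPS and 20 of 21 with it. Their median log2 fold changes were 2.17, 2.36, 1.26 and 1.79, beside 1.76, 1.79, 0.62 and 0.54 for the members. CSF3, a granulocyte growth factor, had the largest rises with LPS, from 0 to 7 counts to 77 to 127 counts in scramble control and from 37 to 43 counts to 1600 to 2826 counts in linc-ADAIN KD (log2 5.92, SE 0.15). BCL2A1, an inhibitor of apoptosis, rose with the knockdown under LPS from 34 to 45 counts to 819 to 1056 counts (log2 4.65, SE 0.19), the largest rise among the called output genes whose mean count reached 50. CSF2, below that mean, had a larger fitted value (log2 6.89, adjusted p = 0.024 by edgeR). In the interaction, 4 of 21 output genes were called higher and 1 lower, where 0.943% and 0.332% of all genes were. Among them were IL6 at 1.17 (SE 0.13) and SOD2, a mitochondrial superoxide dismutase, at -0.81 (SE 0.11). Whether these calls hold with a library left out was not tested.

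**Figure D4:**
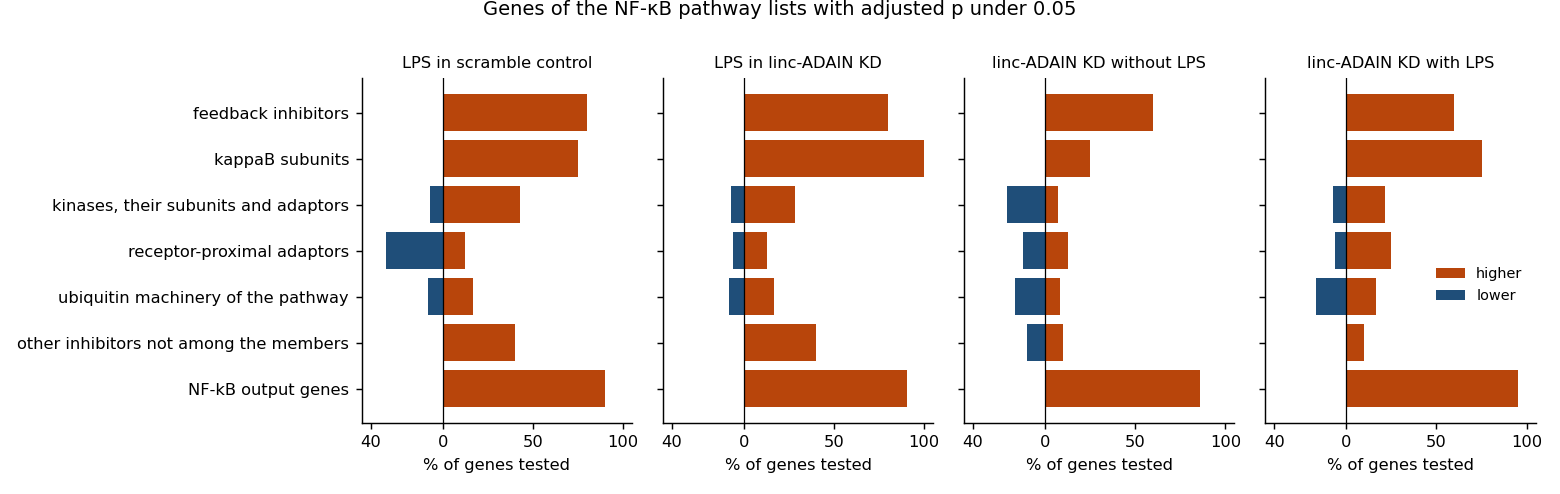
Share of the genes tested in each list (horizontal axis, percent) that were called higher (right of 0) or lower (left of 0) at edgeR's adjusted p under 0.05, for the 4 comparisons of groups. The feedback inhibitors show 8, 8, 6 and 6 of 10 called higher and none lower, and the output genes show 18 of 20 and then 19, 18 and 20 of 21 called higher and none lower.

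Profiles over the 12 libraries were compared for NFKBIA, TNFAIP3 and BIRC3. Over the 11810 genes whose mean count reached 50, Pearson's r of log2 CPM with NFKBIA was highest for CFLAR (0.987), B4GALT5 (0.987) and REL (0.986). For TNFAIP3 it was highest for CFLAR (0.995), MAP3K8 (0.993) and NFKB1 (0.992). CFLAR, which encodes an inhibitor of caspase-8, headed both. For BIRC3 it was highest for POU2F2 (0.995), SLC1A3 (0.990) and AMPD3 (0.989), which encode a transcription factor, a glutamate transporter and an AMP deaminase. The libraries fall into 4 groups, and these values describe how alike the group differences are, with no test.

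The members lie on 8 chromosomes. On GRCh38, by GENCODE release 44, the genes that differed most between the shRNAs are BIRC3 at chr11:102317484-102339403 on the plus strand, with 9 exons in its reference transcript, TNIP3 at chr4:121131408-121227466 on the minus strand, with 11 exons, and NFKBIZ at chr3:101827991-101861022 on the plus strand, with 12 exons. Those that did not pass the test between the shRNAs include NFKBIA at chr14:35401079-35404749 on the minus strand, with 6 exons, and TNFAIP3 at chr6:137867214-137883314 on the plus strand, with 9 exons. Counts were summed over all transcripts of a gene, so the values do not tell start sites or isoforms apart.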

How the data were processed

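RNA was read on an Illumina NextSeq after stranded mRNA library preparation. The authors pseudoaligned the reads to human transcripts (GRCh38) with kallisto 0.44.0 and deposited estimated counts per gene name, whole numbers with no normalization for library size or length. The annotation release is not given in the sources used here. A row with no gene name (0.235% to 0.306% of a library's counts) was left out. Groups were taken from the labels.

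In R 4.3.3, libraries were scaled by TMM with edgeR 4.0.16, and genes whose counts summed to 10 or more in the libraries fitted were kept. Its quasi-likelihood F test was applied, with p-values adjusted by the Benjamini-Hochberg method over all genes tested. Each comparison used its 6 libraries, and the interaction all 12. Called means an adjusted p under 0.05, and a second count adds a difference of at least 2-fold. With 3 libraries against 3, an exact permutation test could not go below 0.1, so none was used for single genes. DESeq2 1.42.0 was an alternative, with other scalings and filters, all 12 libraries in 1 fit, a block for the replicate number, and fits leaving out single libraries. The steps were tested on simulated data. Replicates differed by more than sampling noise (chi-square per degree of freedom of 18.7 to 48.4).

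All 10 members are named in each comparison. Fold changes of the other lists are given for up to 2 genes per comparison. They were taken from the largest rise and the largest fall among called genes whose mean count reached 50. Not all of these are named, so a list with no fall named may still hold one. The counts of CSF3, BCL2A1 and TRAF1, the value of CSF2 and the comparison of the knockdown alone with LPS alone were picked after their values were seen. The members and lists were chosen with earlier results of these data known. Promoter windows come from RefSeq on GRCh38.p14, and positions and transcript lengths from GENCODE release 44. Precision is limited by the number of libraries and, for NFKBIE, TNIP3 and BIRC3 in scramble control, by counts of 73 to 213.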

Additional observations from a re-analysis of the deposited data

Results flagged for a closer look

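TNIP3 was singled out because its response to LPS differed between scramble control and linc-ADAIN KD by a test of that difference, the interaction term of edgeR over 12 libraries, at 1.07 on the log2 scale (adjusted p = 0.02). The call was lost without scramble control replicate 1 (0.92, adjusted p = 0.065) or linc-ADAIN KD LPS replicate 3 (1.03, adjusted p = 0.065). Its means were 1.71 ± 0.293 and 8.75 ± 0.810 CPM without and with LPS in scramble control while linc-ADAIN KD had 3.72 ± 0.595 and 39.7 ± 2.00 CPM (SD, n = 3). All 3 libraries with LPS were above all 3 without it under each shRNA. The summed adipocyte markers were lower in the knockdown libraries, at 625 to 2050 CPM against 3490 to 4790 CPM, and their part in this result was not tested.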

How the results depend on the processing

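Of 50 log2 fold changes (10 members in 5 comparisons), 32 had the same sign and the same call under every alternative. Over all alternatives, 646 of 700 values did so, 19 fell short of the threshold, 7 newly passed it and 28 changed sign. The members called lower with LPS in scramble control went from 0 to 1, TNIP2, with DESeq2 (adjusted p = 0.043), scaling by library totals alone (0.039) and the replicate block (0.027), and the members called in the interaction from 1 to 2 with DESeq2 and to between 0 and 1 with a library left out. The cause was not tested. Signs turned only for values that were not called. NFKBIB with LPS in scramble control was -0.029 by library totals and -0.0024 in the fit of 12 libraries, NFKBIA for the knockdown without LPS 0.078 and TNIP2 for the knockdown with LPS 0.060 by library totals, a scaling that moved the median of all genes from 0.024 to 0.13 and from 0.025 to 0.11 in the 2 knockdown comparisons.

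With 1 library left out, ranges that crossed 0 were -0.077 to 0.12 (NFKBIB, LPS in scramble control), -0.12 to 0.026 and -0.0013 to 0.059 (NFKBIA and NFKBIB, knockdown without LPS), -0.054 to 0.079 and -0.11 to 0.078 (NFKBIA and TNIP2, knockdown with LPS) and, for the interaction, -0.029 to 0.13 (NFKBIA), -0.27 to 0.10 (NFKBIE), -0.18 to 0.052 (NFKB2) and -0.23 to 0.45 (BIRC3). The BIRC3 differences between the shRNAs ranged from 2.58 to 3.27 without LPS and from 2.92 to 3.13 with it. The all-gene counts called in the interaction, 162 higher and 57 lower, were 306 and 169 with DESeq2, 266 and 165 with no filter and as few as 72 and 20 without scramble control replicate 2. Without that library, the counts with LPS in scramble control fell from 940 to 474 higher and from 1334 to 713 lower, and without scramble control LPS replicate 3 the first was 558.

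Whether replicate numbers pair the libraries could not be settled with 3 libraries per group. Same-numbered libraries correlated in their deviations from the group means by -0.10 to 0.23. Used as a block, the number raised the genes called higher with LPS in scramble control from 940 to 1447 and gave NFKBIE an adjusted p of 0.064 for the knockdown without LPS.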
